A study of Homo sapiens with 6 samples.

Results

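Laminins, thrombospondins, tenascins and other glycoproteins and proteoglycans of the extracellular matrix were read out of the RNA-seq data of Hs578T cells with and without CCN3 knockdown. The members were the rows of the deposited count table that carried 1 of 38 listed gene symbols, and all 38 were found among its 46427 genes. The rule uses the symbols alone and no measured value, but the symbols were chosen with earlier results of these data known. RNA was taken from Hs578T, a breast carcinoma line used as a model of triple-negative breast cancer, after retroviral transduction with pSUPER control shRNA (shCTRL, 3 libraries) or with pSUPER CCN3 shRNA #2 (shCCN3, 3 libraries) and selection of stable lines. Both groups therefore carried a vector and had passed the same selection, and the series states that the 3 replicates of a group were biologically independent, without saying whether transduction was repeated. A single CCN3 shRNA was used, and separate lines within a group are not stated. A difference between the control and knockdown lines and an effect of the knockdown therefore cannot be told apart.

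Laminins are cross-shaped secreted proteins, each built from an alpha, a beta and a gamma chain, that polymerize into the sheet of the basement membrane. Nidogens, agrin and perlecan tie that sheet to collagen IV and to the cell surface, while fibronectin forms fibrils in interstitial matrix. Tenascins, thrombospondins, SPARC, periostin and related matricellular proteins contribute little to mechanical support and are known for regulating adhesion, growth factor availability and remodelling, and several of them are abundant in tumour stroma and in mesenchymal breast cancer cells.

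Levels are given as TMM-scaled CPM, that is, a gene's counts per 1000000 counts of the library after edgeR's scaling between libraries, in the order of replicates 1, 2 and 3 of a group. Changes are log2 fold changes of shCCN3 against shCTRL, and p-values are those of edgeR's quasi-likelihood test after correction by Benjamini and Hochberg's method for the 17419 genes left by the filter on low counts. In what follows, SE is the standard error of a log2 fold change, and a gene was called at an adjusted p under 0.05. The SE was derived from the quasi-likelihood test, as the absolute log2 fold change divided by the square root of its F statistic. An exact two-sided permutation test over 3 against 3 libraries cannot give a p below 0.1, and each member whose groups did not overlap had that smallest p.

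The targeted gene was checked first. CCN3, a secreted matricellular protein of the CCN family, measured 103, 102 and 98.1 CPM in the shCTRL libraries and 47.4, 47.2 and 46.5 CPM in the shCCN3 libraries. All shCCN3 libraries lay below all shCTRL libraries, with a log2 fold change of -1.10 ± 0.055 (SE, n = 3 per group, edgeR's quasi-likelihood test, adjusted p = 1.34e-06). The libraries held 56159110 to 68393177 counts, so that 3 counts correspond to 0.0435 to 0.0540 CPM, counting error only. Markers of a mesenchymal breast cancer line (VIM, AXL, CD44, ZEB1, CDH2) had summed levels of 11083 to 11283 CPM in shCTRL and 9876 to 10582 CPM in shCCN3 libraries, most of it VIM. Of these 5, CDH2 was called higher (means of 89.0 and 162 CPM in shCTRL and shCCN3), CD44 was called lower and VIM, AXL and ZEB1 were not called. The sum of 5 epithelial markers was 0.611 to 0.971 CPM in shCTRL and 0.126 to 0.348 CPM in shCCN3 libraries, and its part in the results was not tested. Of these markers CLDN4 alone passed the filter and was called lower, EPCAM was at 0 in 5 of the 6 libraries and CDH1 did not exceed 0.141 CPM. The sums of 3 blood and of 3 endothelial markers were 0.422 to 0.828 and 3.11 to 4.46 CPM in shCTRL libraries. In shCCN3 libraries they were 0.468 to 0.812 and 3.22 to 3.73 CPM, the endothelial sum mostly PECAM1. Of these markers CD3E and CDH5 were at 0 in every library, whereas PECAM1, CD14 and PTPRC passed the filter and were not called. ESR1 did not exceed 0.156 CPM. PGR at 2.86 and 3.8 CPM and ERBB2 at 77.9 and 78.2 CPM (means of shCTRL and shCCN3) were detected. Libraries of both groups deviated by transcript length. Library 2 of shCCN3 did so the most. Its median deviation from the mean of the other libraries of its group was 0.16 on the log2 scale over the genes with the shortest transcripts (up to 2516 bp). Over those with the longest (above 4454 bp) it was -0.17. The same medians were -0.10 and 0.12 in library 3 of shCCN3 and 0.09 and -0.09 in library 3 of shCTRL. Library 2 of shCCN3 was the lowest of its group for 21 of the 34 members tested, against 41.9% of all genes tested. The part of this library in the results was not tested beyond leaving it out. The members whose call changed without it are named where they are described.

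Of the 38 members, 34 passed the filter on low counts, and LAMC3, NID1, COMP and SPON1 did not. Of the 34, 20 were called (58.8%), where 33.4% of all genes tested were called. Lower levels in shCCN3 cells were called for 13 members (38.2%, with 17.3% of all genes tested called lower) and higher levels for 7 (20.6%, with 16.2% of all genes called higher). A change of at least 2-fold was called for 8 members, where 8.1% of all genes reached it, namely higher POSTN and MATN3 and lower TNC, MGP, LAMA4, LAMA3, TNXB and NID2. The groups did not overlap for 24 of the 34 members, compared with 46.3% of all genes tested. The median log2 fold change of the 34 members was -0.24, and that of all genes tested was 0.01. These counts describe the list, which was not tested as a set.

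**Figure D1:**
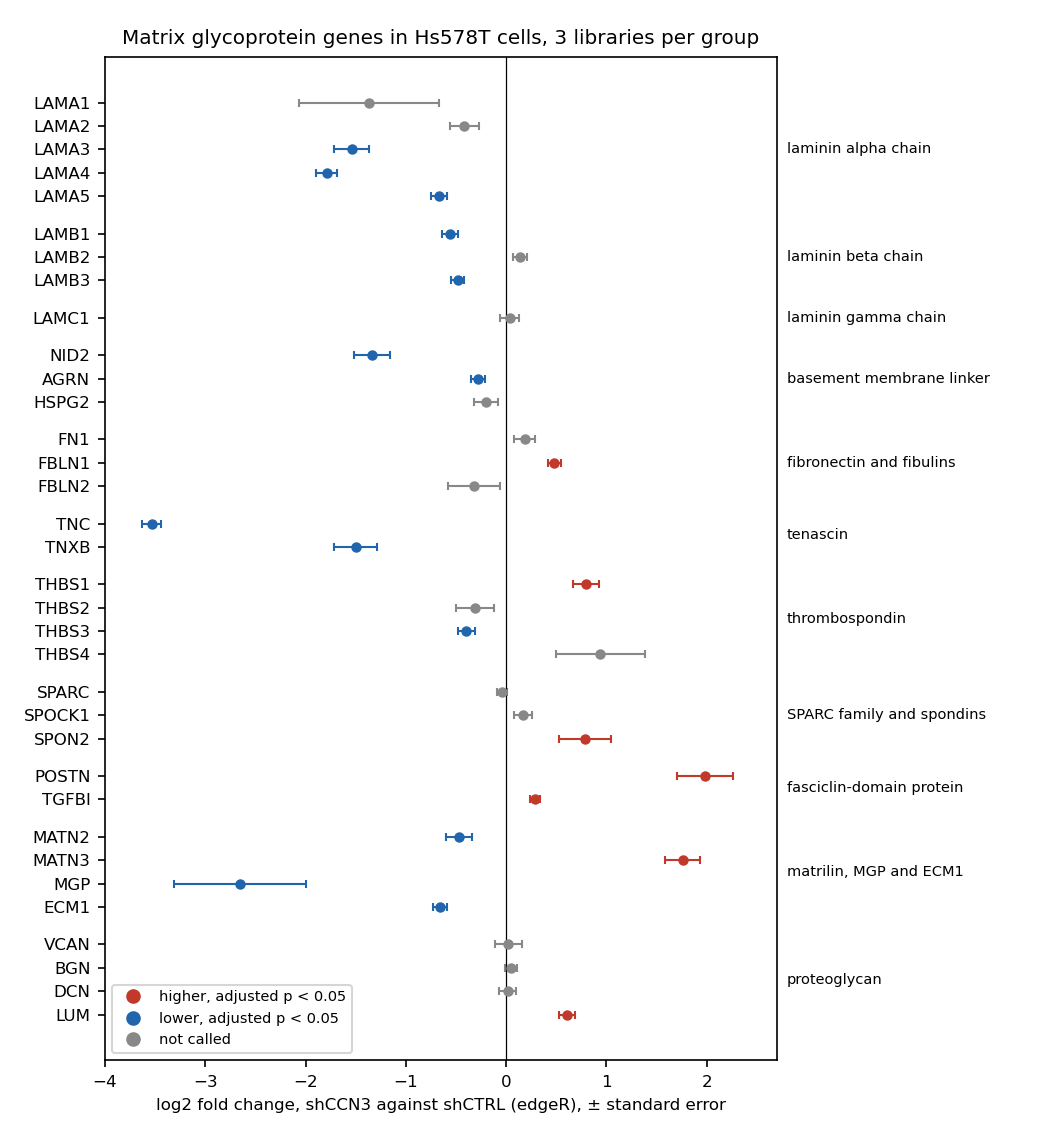
Log2 fold change (shCCN3 against shCTRL, horizontal axis) of the 34 members tested, grouped by role, with bars of 1 SE and colours for the edgeR call. TNC lies farthest to the left at -3.54, POSTN and MATN3 farthest to the right at 1.98 and 1.76, and SPARC, BGN, DCN, VCAN and LAMC1 lie near 0.

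Promoter windows of 5 members with large or well-supported changes are shown here, so that the genes can be placed in the genome and their base composition compared. The 250 bases upstream of an annotated start were taken from RefSeq on GRCh38.p14 and are written 5′ to 3′ on the strand of the gene. Capitals mark matches on either strand to the letters TATAAA of a basal promoter element (the TATA box), TGANTCA for AP-1, GGAATG for TEAD factors or GGGCGG for SP and KLF factors (the SP/KLF box), and positions count from the start of transcription, with -1 the base just before it.

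TNC, chr9:115118158-115118407, minus strand: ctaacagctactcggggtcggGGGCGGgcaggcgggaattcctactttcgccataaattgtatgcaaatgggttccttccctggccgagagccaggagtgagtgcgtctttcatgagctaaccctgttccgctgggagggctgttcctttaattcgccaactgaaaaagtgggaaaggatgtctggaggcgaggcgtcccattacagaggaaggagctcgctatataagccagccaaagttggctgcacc
LAMA4, chr6:112254568-112254817, minus strand: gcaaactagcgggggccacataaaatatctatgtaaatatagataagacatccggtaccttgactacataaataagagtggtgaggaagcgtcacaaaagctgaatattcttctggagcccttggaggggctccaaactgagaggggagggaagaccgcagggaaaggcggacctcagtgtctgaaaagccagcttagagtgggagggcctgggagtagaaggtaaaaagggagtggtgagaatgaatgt
THBS1, chr15:39580829-39581078, plus strand: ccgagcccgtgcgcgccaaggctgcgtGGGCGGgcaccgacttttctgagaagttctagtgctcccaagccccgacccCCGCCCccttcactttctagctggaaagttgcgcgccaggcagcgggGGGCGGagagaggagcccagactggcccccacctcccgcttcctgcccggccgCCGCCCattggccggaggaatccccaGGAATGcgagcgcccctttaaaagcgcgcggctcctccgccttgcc
MATN3, chr2:20012669-20012918, minus strand: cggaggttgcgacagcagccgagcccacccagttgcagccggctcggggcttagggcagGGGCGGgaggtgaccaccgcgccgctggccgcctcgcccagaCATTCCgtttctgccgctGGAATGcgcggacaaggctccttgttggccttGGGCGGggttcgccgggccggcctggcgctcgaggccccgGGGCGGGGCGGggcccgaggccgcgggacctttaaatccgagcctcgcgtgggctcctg
POSTN, chr13:37598769-37599018, minus strand: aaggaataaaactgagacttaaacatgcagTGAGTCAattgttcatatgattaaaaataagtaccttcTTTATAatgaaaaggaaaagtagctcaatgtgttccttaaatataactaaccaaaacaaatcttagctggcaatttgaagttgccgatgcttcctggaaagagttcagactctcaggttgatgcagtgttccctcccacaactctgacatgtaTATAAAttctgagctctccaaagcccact

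The TNC window held 1 SP/KLF box at -229 and had 54.8% G and C, and that of LAMA4 held none of the 4 motifs at 48.4% G and C. The LAMA4 window lies inside the span of the gene (chr6:112107931-112254985), upstream of a start within that span and not at its outer end. THBS1 had SP/KLF boxes at -223, -172, -125 and -72 and the TEAD letters at -46, with 69.6% G and C. MATN3 had the TEAD letters at -149 and -131 and SP/KLF boxes at -191, -99, -59 and -54, the last pair overlapping, with 74% G and C. POSTN was the most AT-rich of the 5 at 36.4% G and C, with the AP-1 letters at -220 and TATAAA at -29. At -182 it had the letters TATAAA on the opposite strand. Windows existed for 29 of the 38 members, 37 windows in all. Among these, 4 held TATAAA (10.81%, against 10.72% of the 35116 windows of all genes), 4 held TGANTCA (10.81% against 6.57%), 7 held GGAATG (18.92% against 11.89%) and 27 held GGGCGG (72.97% against 42.64%). The genes with TGANTCA were LAMA3, LAMB3, POSTN and ECM1, of which POSTN was higher and the others lower in shCCN3 cells. A match of letters describes the window and is no measure of binding. Only the exact letters were searched, so near matches, such as tatataag close to the start in the TNC window, are not marked.

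Among the laminin alpha chains, which carry the domains that bind cell surface receptors, LAMA5, LAMA4 and LAMA3 were lower in shCCN3 cells and LAMA1 and LAMA2 were not called. LAMA5, the alpha chain of laminins widespread in adult basement membranes, was the most abundant of them per length. LAMA5 (chr20:62309065-62367312, GRCh38) measured 628, 684 and 673 CPM in shCTRL and 417, 375 and 458 CPM in shCCN3 libraries. The lowest shCTRL library was well above the highest shCCN3 library, and the mean went from 662 ± 29.6 to 417 ± 41.3 CPM (SD, n = 3), a log2 fold change of -0.67 ± 0.078 (SE, edgeR's quasi-likelihood test, adjusted p = 0.000194). The median of chromosome 20 was -0.12, and LAMA5 minus that median was -0.55.

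LAMA4, the alpha chain of endothelial and mesenchymal laminins (chr6:112107931-112254985), measured 8.37, 8.52 and 8.96 CPM in shCTRL and 2.34, 2.65 and 2.50 CPM in shCCN3 libraries. Both groups were tight and far apart, 3.45-fold in their means (log2 fold change -1.79 ± 0.105 SE, edgeR's quasi-likelihood test, adjusted p = 3.24e-06). Chromosome 6, on which LAMA4, LAMA2, TNXB and THBS2 lie, showed a median of 0.34 over its 891 genes tested, whereas the log2 fold changes of these 4 members were negative, and LAMA4 minus that median was -2.13. LAMA3, the alpha chain of the epithelial laminin of hemidesmosomes, measured 4.18, 3.60 and 3.25 CPM in shCTRL and 1.04, 1.33 and 1.42 CPM in shCCN3 libraries. Its groups did not overlap either, with a log2 fold change of -1.54 ± 0.174 (SE, edgeR's quasi-likelihood test, adjusted p = 0.00016).

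LAMA2, the chain of muscle and nerve laminins, was 8.63, 7.70 and 8.05 CPM in shCTRL and 6.22, 4.77 and 7.25 CPM in shCCN3 libraries. The groups did not overlap, but the shCCN3 libraries were spread and the test missed the threshold (log2 fold change -0.42 ± 0.146 SE, edgeR's quasi-likelihood test, adjusted p = 0.055). It was called without library 3 of shCCN3 (adjusted p = 0.0203) and, with all libraries, by DESeq2 (adjusted p = 0.0289) and limma-voom (adjusted p = 0.0484). Without library 2 of shCCN3, its lowest, the log2 fold change of LAMA2 was -0.27 (edgeR's quasi-likelihood test, adjusted p = 0.0735). LAMA1, the embryonic alpha chain, held 19, 36 and 27 counts in shCTRL and 19, 0 and 12 counts in shCCN3 libraries, so that the lowest shCTRL and the highest shCCN3 library were level, and no difference could be called at this depth (log2 fold change -1.37 ± 0.700 SE, adjusted p = 0.171). An antisense transcript overlaps 10.3% of the exon bases of LAMA1.

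Of the beta chains, which join alpha and gamma chains in the coiled coil of the trimer, LAMB1 and LAMB3 were lower and LAMB2 was not called. LAMB1, widely expressed (chr7:107923799-108003161), measured 310.5, 319 and 294 CPM in shCTRL and 217, 184 and 224 CPM in shCCN3 libraries. The groups were clearly separate, with a log2 fold change of -0.56 ± 0.080 (SE, edgeR's quasi-likelihood test, adjusted p = 0.000613). Here the neighbourhood moved too: over the 821 genes tested on chromosome 7 the median was -0.43, the 24 nearest genes tested had a median of -0.47, and LAMB1 minus the chromosome median was -0.14. What the shift of the chromosome contributed to LAMB1 was not tested.

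LAMB3, the beta chain of the epithelial laminin, measured 118, 128 and 131 CPM in shCTRL and 86.7, 91.5 and 91.3 CPM in shCCN3 libraries. The shCCN3 libraries lay together below the shCTRL libraries (log2 fold change -0.49 ± 0.061 SE, edgeR's quasi-likelihood test, adjusted p = 0.000308). LAMB2, the beta chain of neuromuscular and glomerular laminins, was 338, 366 and 362 CPM in shCTRL and 384, 367 and 423 CPM in shCCN3 libraries, with all shCCN3 libraries slightly above (log2 fold change 0.14 ± 0.068 SE, adjusted p = 0.151). Without library 2 of shCCN3, LAMB2 was called higher by edgeR (log2 fold change 0.19, adjusted p = 0.0286).

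LAMC1, the gamma chain shared by most laminins, measured 418, 414 and 368 CPM in shCTRL and 432, 354 and 445 CPM in shCCN3 libraries, and library 2 of shCCN3 lay below all others. The log2 fold change was 0.04 ± 0.093 (SE, edgeR's quasi-likelihood test, adjusted p = 0.807). LAMC3 gave 6 counts in library 3 of shCTRL, 4 counts in library 1 of shCCN3 and 0 elsewhere.

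Chains can be set side by side only per length, here as CPM per kb of the longest coding transcript of GENCODE 29. On this scale the mean summed level was 60.5 ± 2.54 for alpha, 145 ± 4.38 for beta and 50.7 ± 3.58 for the gamma chains LAMC1 and LAMC3 in shCTRL cells (SD, n = 3). In shCCN3 cells the sums were 37.6 ± 3.75, 126 ± 8.36 and 52.0 ± 6.26 CPM per kb. The ratio of alpha chain RNA to these gamma chains ranged from 1.09 to 1.32 in shCTRL and from 0.686 to 0.756 in shCCN3 libraries, and that of beta chain RNA from 2.66 to 3.11 and from 2.29 to 2.63, with no overlap in either ratio. With the length of all joined exons in place of the transcript, chosen after seeing the data, the mean alpha to gamma ratio was 1.02 in shCTRL and 0.618 in shCCN3 cells, and the ranges of the beta to gamma ratio, 2.26 to 2.67 and 1.97 to 2.27, overlapped. LAMA5 made up 95.8% of alpha chain RNA in shCTRL and 97.0% in shCCN3 cells. Within the beta chains the order of LAMB2 and LAMB1 stayed, but the share of LAMB2 was 43.1% in shCTRL and 54.8% in shCCN3 cells, that of LAMB1 36.8% and 28.6%, and that of LAMB3 20.1% and 16.6%. These shares are descriptions of RNA and carry no test. LAMB1 lies on chromosome 7, whose median log2 fold change was -0.43. What that shift contributed to the beta sums, ratios and shares was not tested.

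**Figure D2:**
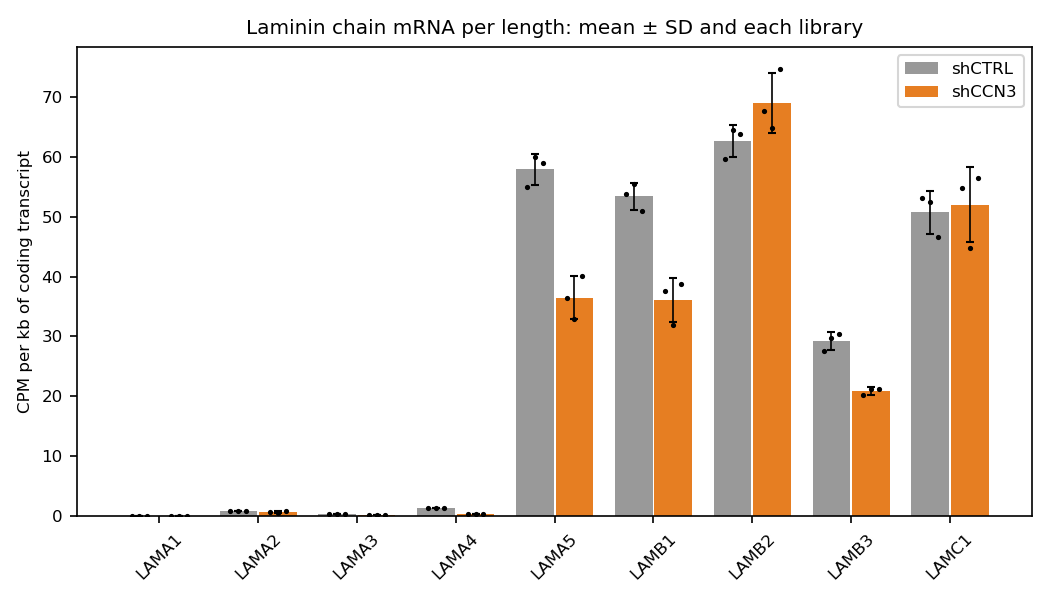
Level per length of the laminin chains (CPM per kb of the longest coding transcript, linear axis from 0) in shCTRL and shCCN3 cells, with bars for group means, error bars of 1 SD (n = 3) and points for libraries. LAMA5, LAMB1 and LAMB3 are lower in all shCCN3 libraries, the groups overlap for LAMC1, and the other alpha chains are close to 0 beside LAMA5.

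Of the linkers of the basement membrane, NID2 and AGRN were lower, HSPG2 was not called and NID1 was barely detected. NID2, a nidogen that bridges laminin and collagen IV, measured 8.18, 8.18 and 5.66 CPM in shCTRL and 3.42, 2.48 and 2.77 CPM in shCCN3 libraries. Even the lowest shCTRL library exceeded every shCCN3 library (log2 fold change -1.34 ± 0.179 SE, edgeR's quasi-likelihood test, adjusted p = 0.000436). RTRAF overlaps NID2 on the opposite strand over 30.0% of the exon bases of NID2, and since it is not given in the sources used here whether counting used the strand, the level of NID2 is uncertain. NID1, the other nidogen, gave 4 counts in library 3 of shCTRL and 0 in the other 5 libraries.

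AGRN, the heparan sulphate proteoglycan agrin, measured 449, 491 and 493 CPM in shCTRL and 396, 362 and 419 CPM in shCCN3 libraries. The groups were close but separate, with a log2 fold change of -0.28 ± 0.070 (SE, edgeR's quasi-likelihood test, adjusted p = 0.0127). The median of chromosome 1 was -0.13, and AGRN minus that median was -0.16. On the same chromosome, LAMB3, THBS3 and ECM1 minus that median were at -0.36, -0.27 and -0.53. What the shift of the chromosome contributed to these members was not tested. Without library 2 of shCTRL the adjusted p was 0.0682, and without library 3 of shCTRL it was 0.0516. HSPG2, perlecan, was 32.2, 35.9 and 31.6 CPM in shCTRL and 28.1, 24.2 and 34.5 CPM in shCCN3 libraries, with overlap between the groups (log2 fold change -0.20 ± 0.121 SE, adjusted p = 0.246), and it was called lower without library 3 of shCCN3 (log2 fold change -0.34, adjusted p = 0.032). Without library 2 of shCCN3 the log2 fold change of HSPG2 was -0.08 (edgeR's quasi-likelihood test, adjusted p = 0.508). LDLRAD2 overlaps 11.7% of the exon bases of HSPG2 on the opposite strand.

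FN1, fibronectin, the main fibril-forming glycoprotein of interstitial matrix, measured 2478, 2448 and 2161 CPM in shCTRL and 2819, 2209 and 3020 CPM in shCCN3 libraries. Libraries 1 and 3 of shCCN3 lay above all shCTRL libraries and library 2 did not, and the difference was not called (log2 fold change 0.18 ± 0.109 SE, edgeR's quasi-likelihood test, adjusted p = 0.233). Without library 2 of shCCN3 the log2 fold change was 0.31 and the adjusted p was 0.0029, so 1 library decided whether FN1 was called.

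FBLN1, fibulin, a protein that associates with elastic fibres and fibronectin, measured 139.9, 150.4 and 156 CPM in shCTRL and 207, 217 and 199 CPM in shCCN3 libraries. The shCCN3 libraries were all higher (log2 fold change 0.48 ± 0.064 SE, edgeR's quasi-likelihood test, adjusted p = 0.000434), while the 24 nearest genes tested had a median of -0.34. FBLN2 was near 1 CPM in both groups, from 0.961 to 1.53 CPM in shCTRL and from 0.696 to 1.13 CPM in shCCN3 libraries, and was not called (adjusted p = 0.394).

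Both tenascins were lower, and TNC had the largest change of the 34 members tested. TNC, tenascin-C, a glycoprotein of developing tissue, wounds and tumour stroma (chr9:115019575-115118157), measured 52.2, 51.9 and 47.0 CPM in shCTRL and 4.15, 4.05 and 4.82 CPM in shCCN3 libraries. No library of one group came near the other, and the mean went from 50.4 ± 2.90 to 4.34 ± 0.417 CPM (SD, n = 3), 11.6-fold lower. The log2 fold change was -3.54 ± 0.093 (SE, edgeR's quasi-likelihood test, adjusted p = 4.22e-08), and fits without 1 of the 6 libraries gave -3.62 to -3.49. The median of the 24 nearest genes tested was -0.03.

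TNXB, tenascin-X, a tenascin of connective tissue that associates with collagen, was low, at 2.1, 1.89 and 1.52 CPM in shCTRL and 0.551, 0.774 and 0.625 CPM in shCCN3 libraries. The groups were separate (log2 fold change -1.50 ± 0.218 SE, edgeR's quasi-likelihood test, adjusted p = 0.000695). A near-identical partial copy, TNXA, lies beside it in the genome, so its counts are uncertain.

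**Figure D3:**
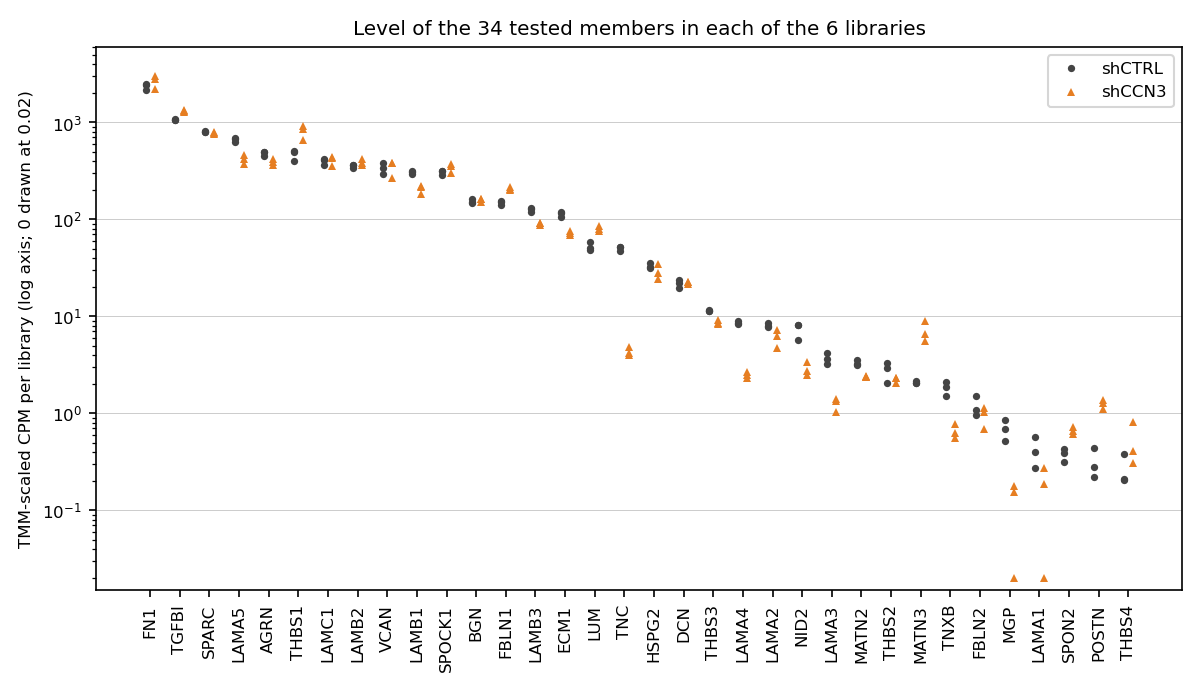
TMM-scaled CPM (log axis) of the 34 members tested, ordered by level, with a point for each of the 3 shCTRL and a triangle for each of the 3 shCCN3 libraries and values of 0 drawn at 0.02. TNC, LAMA4 and LAMA3 are lower and THBS1, MATN3 and POSTN higher in all 3 shCCN3 libraries, whereas the groups overlap for FN1.

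Among the thrombospondins, THBS1 was higher, THBS3 lower, and THBS2 and THBS4 were not called. THBS1, a secreted trimer that binds CD47 and is known to activate latent TGF-beta (chr15:39581079-39599466), measured 507, 494 and 404 CPM in shCTRL and 855, 659.6 and 922 CPM in shCCN3 libraries. Every shCCN3 library was higher, although library 2 was again the lowest of its group, and the means differed 1.73-fold (468 ± 56.1 and 812 ± 136 CPM, SD, n = 3). The log2 fold change was 0.79 ± 0.128 (SE, edgeR's quasi-likelihood test, adjusted p = 0.00127). Per length, THBS1 accounted for 93.5% of thrombospondin RNA in shCTRL and 96.9% in shCCN3 cells.

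THBS3, a pentameric thrombospondin of skeletal tissue, measured 11.4, 11.3 and 11.6 CPM in shCTRL and 8.56, 9.14 and 8.35 CPM in shCCN3 libraries. The groups were tight and separate (log2 fold change -0.40 ± 0.081 SE, edgeR's quasi-likelihood test, adjusted p = 0.00486), but an antisense gene overlaps 22.2% of the exon bases of THBS3. THBS2, the trimeric relative of THBS1, ranged from 2.07 to 3.34 CPM in shCTRL and from 2.05 to 2.33 CPM in shCCN3 libraries, with overlap (adjusted p = 0.243). THBS4 stayed under 1 CPM, at 0.378, 0.207 and 0.209 CPM in shCTRL and 0.406, 0.306 and 0.813 CPM in shCCN3 libraries, and was not called (log2 fold change 0.94 ± 0.445 SE, adjusted p = 0.141). COMP, the cartilage thrombospondin, had 0 counts in all 6 libraries.

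Of the SPARC family and spondins, only SPON2 was called. SPARC, a collagen-binding matricellular protein, measured 808, 799 and 794 CPM in shCTRL and 789, 769 and 774 CPM in shCCN3 libraries. The shCCN3 libraries were all lower by a margin near the spread, and the test did not call it (log2 fold change -0.04 ± 0.049 SE, edgeR's quasi-likelihood test, adjusted p = 0.56). SPOCK1, testican, a proteoglycan related to SPARC, was 317, 314 and 284 CPM in shCTRL and 358, 299 and 372 CPM in shCCN3 libraries. As for FN1, library 2 of shCCN3 lay among the shCTRL libraries, with a log2 fold change of 0.17 ± 0.088 (SE, adjusted p = 0.172) and, without that library, 0.26 (adjusted p = 0.00549).

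SPON2, an F-spondin relative, was rare, with 27, 20 and 29 counts in shCTRL and 45, 40 and 39 counts in shCCN3 libraries. The groups did not overlap and the log2 fold change was 0.79 ± 0.261 (SE, edgeR's quasi-likelihood test, adjusted p = 0.0444), but the call was lost in 9 of 13 alternative settings, among them DESeq2 (adjusted p = 0.0858) and each of the 6 fits without 1 library. SPON1, F-spondin, gave 5 counts in library 2 of shCCN3 and 0 in the other 5 libraries.

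Both fasciclin-domain proteins were higher. TGFBI, a TGF-beta-induced adhesion protein, measured 1070.3, 1087 and 1067 CPM in shCTRL and 1341, 1273 and 1324 CPM in shCCN3 libraries. The change was small beside its level but larger than the spread (log2 fold change 0.29 ± 0.050 SE, edgeR's quasi-likelihood test, adjusted p = 0.00198). POSTN, periostin, a matricellular protein of fibroblasts and of tumour stroma, had 30, 14 and 19 counts in shCTRL and 94, 62 and 81 counts in shCCN3 libraries. That corresponds to means of 0.314 ± 0.110 and 1.25 ± 0.125 CPM (SD, n = 3), with every shCCN3 library higher and a log2 fold change of 1.98 ± 0.282 (SE, edgeR's quasi-likelihood test, adjusted p = 0.000631).

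MATN3, MGP, ECM1 and MATN2 were all called, MATN3 higher and the other 3 lower. MATN3, a matrilin of cartilage that forms filaments in the matrix, measured 2.18, 2.04 and 2.04 CPM in shCTRL and 6.60, 5.63 and 8.97 CPM in shCCN3 libraries. All shCCN3 libraries were far above the shCTRL libraries, though they varied among themselves (log2 fold change 1.76 ± 0.177 SE, edgeR's quasi-likelihood test, adjusted p = 7.59e-05). Its 24 nearest neighbours among the genes tested had a median of 0.60.

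ECM1, which binds perlecan and other matrix proteins, measured 105, 117 and 121 CPM in shCTRL and 71.6, 76.3 and 68.6 CPM in shCCN3 libraries, with no overlap (log2 fold change -0.66 ± 0.072 SE, edgeR's quasi-likelihood test, adjusted p = 0.000126). MATN2, a matrilin of many tissues, was lower by a smaller step, 3.16 to 3.57 CPM in shCTRL and 2.35 to 2.45 CPM in shCCN3 libraries (log2 fold change -0.47 ± 0.127 SE, adjusted p = 0.0183), and its call was lost without library 2 of shCTRL (adjusted p = 0.0829) or library 1 of shCCN3 (adjusted p = 0.0618) or library 3 of shCCN3 (adjusted p = 0.0525). MGP, an inhibitor of calcification, rested on few reads, with 48, 33 and 57 counts in shCTRL and 0, 10 and 10 counts in shCCN3 libraries. The groups were separate (log2 fold change -2.66 ± 0.655 SE, edgeR's quasi-likelihood test, adjusted p = 0.0124), but the size depended on single libraries and on the tool. Without library 1 of shCCN3, the one at 0, the log2 fold change was -2.03, the lowest and highest values with 1 library left out were -3.15 and -2.03, and limma-voom gave -3.58.

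Of the proteoglycans with chondroitin, dermatan or keratan sulphate chains, LUM was higher and VCAN, BGN and DCN were not called. LUM, lumican, a small leucine-rich proteoglycan that regulates collagen fibrils (chr12:91102629-91111494), measured 58.7, 51.3 and 48.6 CPM in shCTRL and 76.3, 80.1 and 85.4 CPM in shCCN3 libraries. The groups were apart (log2 fold change 0.61 ± 0.082 SE, edgeR's quasi-likelihood test, adjusted p = 0.000465). DCN, decorin, its neighbour on chromosome 12 and of the same family, measured 23.8, 19.8 and 22.2 CPM in shCTRL and 22.7, 21.5 and 22.4 CPM in shCCN3 libraries. Its groups overlapped, with a log2 fold change of 0.01 ± 0.083 (SE, adjusted p = 0.917). BGN, biglycan, ranged from 147 to 162 CPM in shCTRL and from 152 to 163 CPM in shCCN3 libraries (adjusted p = 0.609). VCAN, versican, a large hyaluronan-binding proteoglycan, was 378, 340 and 295 CPM in shCTRL and 378, 269 and 381 CPM in shCCN3 libraries, with the spread within groups exceeding the difference between them (log2 fold change 0.02 ± 0.136 SE, adjusted p = 0.921).

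Summed over all 38 members, the matrix genes took 0.830% of the scaled counts in shCTRL libraries (8305 ± 299 CPM, SD, n = 3) and 0.879% in shCCN3 libraries (8792 ± 852 CPM). The ranges, 7963 to 8516 and 7833 to 9463 CPM, overlapped. FN1, TGFBI, SPARC, THBS1 and LAMA5 together held 64.6 ± 0.551% of that sum in shCTRL and 68.2 ± 0.645% in shCCN3 libraries. Per kb of the longest coding transcript, the order in shCTRL cells began with TGFBI (383 CPM per kb), FN1 (265) and SPARC (216), followed at a distance by AGRN (64.6), BGN (64.2), SPOCK1 (62.9), LAMB2 (62.6), THBS1 (60.2) and LAMA5 (57.9). In shCCN3 cells the same 3 genes led, TGFBI at 468, FN1 at 301 and SPARC at 210 CPM per kb, then THBS1 at 104, while LAMA5 was at 36.5 CPM per kb. The order within the first 3 depended on the length used: per kb of all joined exons, shCTRL cells had SPARC at 166, TGFBI at 138 and FN1 at 136 CPM per kb, and shCCN3 cells had TGFBI at 168, SPARC at 161 and FN1 at 155 CPM per kb. The order of the genes from AGRN to LAMA5 changed as well with that length, which put BGN first among them at 62.8 CPM per kb and AGRN at 44.4 CPM per kb in shCTRL cells. Per kb of the longest coding transcript, TNC was at 6.59 CPM per kb in shCTRL and 0.568 CPM per kb in shCCN3 cells. In bulk RNA, fewer cells expressing a gene and less of its RNA per cell cannot be told apart.

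**Figure D4:**
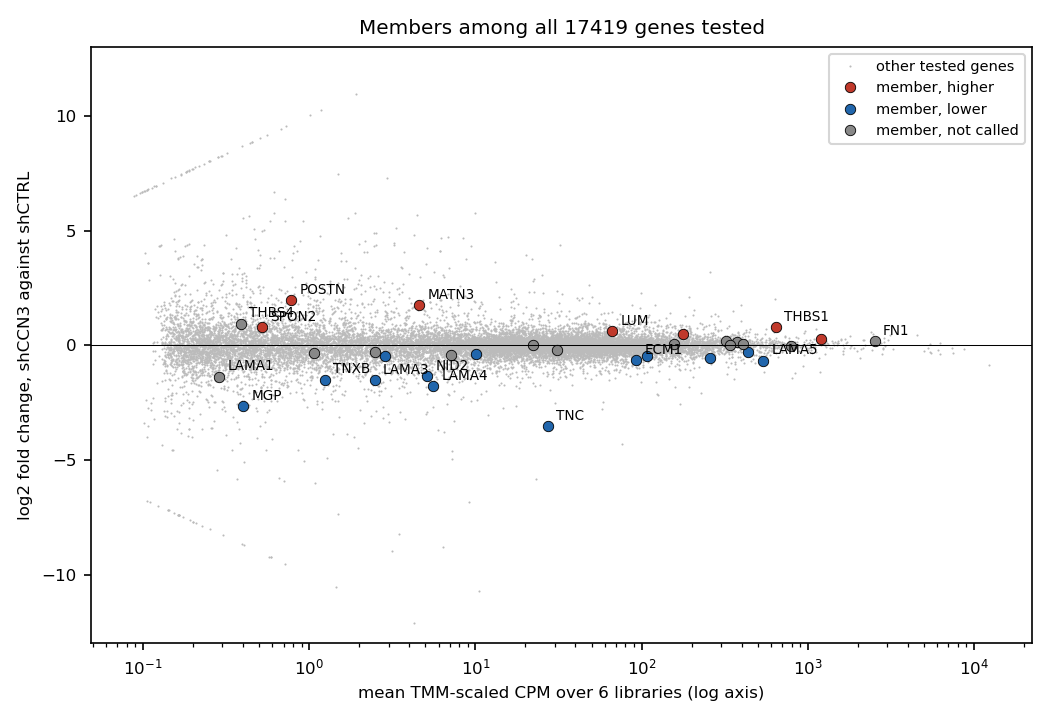
Log2 fold change (vertical axis) against mean level over the 6 libraries (TMM-scaled CPM, log axis) for all 17419 genes tested, in grey, and the 34 members, coloured by call. TNC is the member farthest below 0, POSTN and MATN3 are low-level members above 0, and among the members with the highest CPM, FN1 at 0.18 and SPARC at -0.04 lie close to 0 while THBS1 lies at 0.79 and LAMA5 at -0.67.

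Genes that work with these proteins were read from 4 lists of 82 genes in all, none of them members. Of the 50 that passed the filter, 27 were called (54%, against 33.4% of all genes tested), 14 higher (28%, against 16.2%) and 13 lower (26%, against 17.3%). Among laminin and basement membrane partners, 5 of 11 tested were higher (45.5%, against 16.2% of all genes) and the other 6 were not called. COL4A1, a chain of the collagen IV network, measured 72.7, 71.4 and 64.1 CPM in shCTRL and 150, 111 and 157 CPM in shCCN3 libraries. All shCCN3 libraries were higher (log2 fold change 1.01 ± 0.123 SE, adjusted p = 0.000254), and its partner chain COL4A2 had a log2 fold change of 0.68. COL18A1, the source of endostatin, went from a mean of 80.6 to 160 CPM (log2 fold change 0.99 ± 0.074 SE, adjusted p = 1.26e-05), on a chromosome with a median of 0.23. PXDN, the peroxidase that crosslinks collagen IV, and NTN4, a netrin that binds laminin gamma chains, had log2 fold changes of 0.44 and 0.68. COL4A1 and COL4A2 were thus higher in the shCCN3 libraries, in which LAMA5, LAMB1, LAMB3, NID2 and AGRN were lower. The collagen IV chains COL4A5 and COL4A6 were not called, with log2 fold changes of 0.01 and 0.06. Neither were LAMB2, LAMC1 and HSPG2, so the contrast holds for the named chains only.

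In the list of receptors for laminin, fibronectin, tenascin and thrombospondin, 2 of 16 tested were higher (12.5%, against 16.2% of all genes) and 8 were lower (50%, against 17.3%). Laminin receptors counted with the basement membrane partners, none of them called, are not part of this list. The laminin-binding integrin chains ITGA7, ITGB4 and ITGA6 were lower, with log2 fold changes of -1.79, -1.33 and -0.71. ITGB4, the chain of hemidesmosomes, measured 6.74, 7.72 and 7.21 CPM in shCTRL and 2.71, 2.65 and 3.24 CPM in shCCN3 libraries, with no overlap (edgeR's quasi-likelihood test, adjusted p = 4.47e-05). ITGA3, another laminin receptor chain, had a log2 fold change of -0.01 and was not called. ITGA8, a partner of ITGB1 that binds tenascin-C and nephronectin, measured 51.9, 52.1 and 46.0 CPM in shCTRL and 26.7, 19.5 and 25.6 CPM in shCCN3 libraries (log2 fold change -1.06). ITGB8, which pairs with ITGAV, had a log2 fold change of -1.64 and lies on chromosome 7, whose median was -0.43. ITGAV itself was higher at 0.80, as was ITGA1, a collagen and laminin receptor chain, at 0.86. The fibronectin receptor chain ITGA5 had a log2 fold change of -0.29 and its partner ITGB1 one of 0.24 (adjusted p = 0.13). CD47 and LRP1, both receptors for thrombospondin-1, were lower, with log2 fold changes of -0.29 and -0.59.

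Among 7 hyaluronan and lectican partners tested, HAPLN3 was higher (14.3%, against 16.2% of all genes) and HAS3 and CD44 were lower (28.6%, against 17.3%). HAS3, a hyaluronan synthase, measured 8.78, 8.63 and 7.15 CPM in shCTRL and 2.60, 2.23 and 2.0 CPM in shCCN3 libraries, clearly separate (log2 fold change -1.84 ± 0.139 SE, edgeR's quasi-likelihood test, adjusted p = 1.38e-05). CD44, the hyaluronan receptor, went from 2158 ± 52.4 to 1815 ± 45.8 CPM (SD, n = 3, log2 fold change -0.25).

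Other matrix glycoproteins and small leucine-rich proteoglycans included the largest changes seen among the partners, with 6 of 16 tested higher (37.5%, against 16.2% of all genes) and 3 lower (18.8%, against 17.3%). ABI3BP, a secreted matrix glycoprotein, measured 1.15, 1.18 and 1.27 CPM in shCTRL and 17.8, 13.0 and 18.1 CPM in shCCN3 libraries. The shCCN3 libraries were 13.6-fold higher in the mean (log2 fold change 3.77 ± 0.154 SE, edgeR's quasi-likelihood test, adjusted p = 4.06e-07). EFEMP1, fibulin-3, measured 79.2, 73.7 and 69.5 CPM in shCTRL and 329, 288 and 326 CPM in shCCN3 libraries, again with a wide gap (log2 fold change 2.08 ± 0.077 SE, adjusted p = 2.17e-07). ECM2, FBLN5, SMOC1 and EDIL3 were higher too, by 1.78, 0.77, 0.58 and 0.49 on the log2 scale. SRPX, SRPX2 and FBLN7 had log2 fold changes of -1.23, -1.20 and -0.78. With FBLN1, the fibulins called thus comprised FBLN1, EFEMP1 and FBLN5 among the higher genes and FBLN7 among the lower ones.

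**Figure D5:**
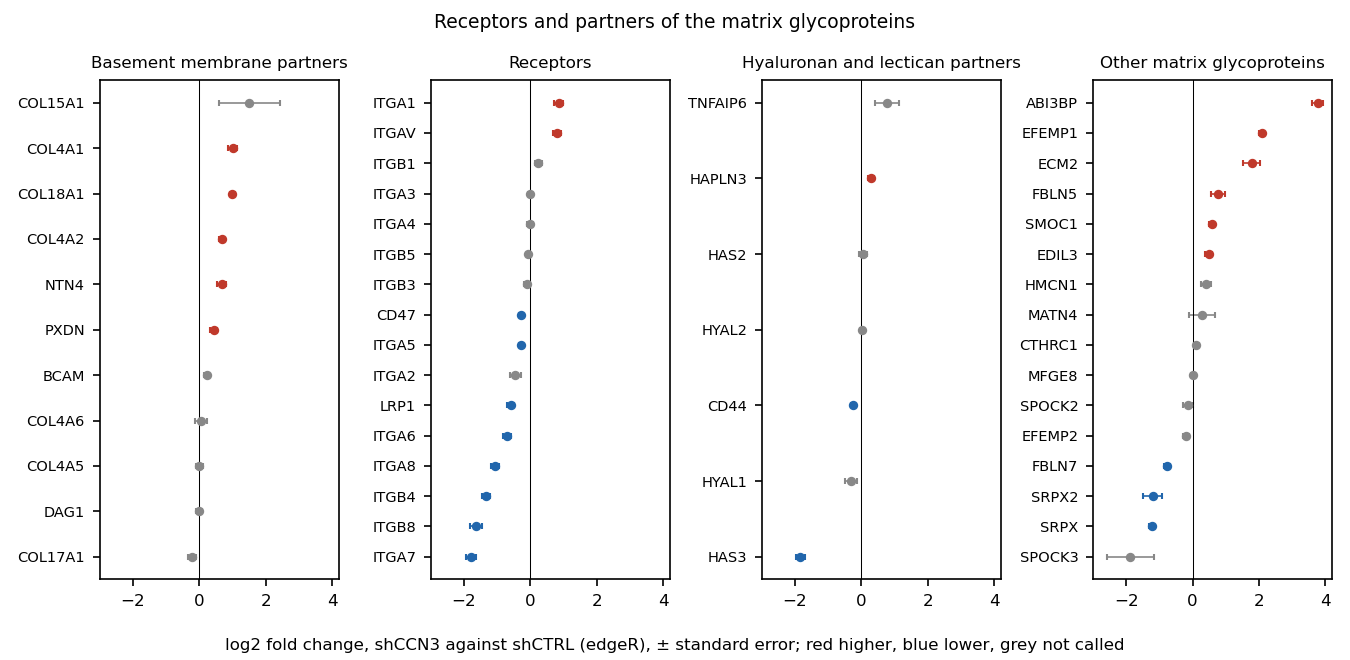
Log2 fold change (shCCN3 against shCTRL) of the 50 partner genes tested, by list, with bars of 1 SE and colours for the edgeR call. ABI3BP at 3.77 and EFEMP1 at 2.08 lie farthest to the right, and HAS3, ITGA7 and ITGB8 are the called genes farthest to the left, at -1.84, -1.79 and -1.64.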

How the data were processed

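Total RNA of 3 shCTRL and 3 shCCN3 samples was sequenced by the study after poly(A) selection with a stranded mRNA kit. The authors deposited raw read counts for 46427 genes, 1 column per library, without normalization. The submitters' processing notes name bcl2fastq 2.20.0, Trimmomatic, HISAT2 2.1.0, StringTie 2.1.3d, DESeq2 and the build GRCh38, without roles. The annotation used and whether counting used the strand are not given in the sources used here, so overlapping genes and near-identical copies are uncertain.

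Libraries were grouped by the sample labels and held 56159110 to 68393177 counts. Within a group, libraries differed by more than sampling noise (chi-square per degree of freedom of at least 7.04), so none was a copy of another. Counts were analysed with edgeR 4.0.16 in R 4.3.3 (TMM, filterByExpr by group, quasi-likelihood test, Benjamini-Hochberg over 17419 genes, threshold 0.05). The whole table was fitted and the members were read from it. The 38 members, their roles, the partner and marker lists and the motifs were chosen with earlier results of these data known. All members, and of the partners those called or completing a complex, could be named. Gene IDs were matched to RefSeq tables (44698 of them), and transcript lengths came from GENCODE 29. The alternatives were upper-quartile and DESeq2 scaling, other filters, DESeq2 1.42.0, limma-voom (limma 3.58.1), the replicate block and leaving out each library. Scripts were tested on simulated data. The p-values measure the spread between these libraries. The values of 1 partner gene are not reported here.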

Additional observations from a re-analysis of the deposited data

How the results depend on the processing

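Of the 20 members called by edgeR's quasi-likelihood test, 17 kept direction and call in every alternative that gave a value, and 18 did so in those that left out no library. The members called numbered 19 to 21 under the other scalings, filters and tools and 17 to 22 when 1 library was left out, with 17 without shCTRL replicate 2 and 22 without shCCN3 replicate 2. All genes called ranged from 4181 to 7229 when 1 library was left out, and partner genes called from 25 to 31. AGRN, MATN2 and SPON2 lost their calls and LAMA2, LAMB2, HSPG2, FN1 and SPOCK1 gained calls in some settings, as given with their values. With each library left out in turn, 3 members that were never called changed sign, with log2 fold changes from -0.026 to 0.135 for LAMC1, -0.065 to 0.171 for VCAN and -0.051 to 0.076 for DCN. Replicate numbers were shared between groups in the labels, but deviations of same-numbered libraries correlated at 0.09, -0.03 and -0.07, so the numbers were not taken as a pairing. With the replicate block, 19 members and 4887 genes in all were called, SPON2 (adjusted p = 0.11) and MATN2 (adjusted p = 0.0507) lost their calls and LAMA2 gained one (adjusted p = 0.0385). LAMA1 and MGP gave no value with at least 10 counts in every library, which left 7 members called at 2-fold or more. Members near 1 CPM or below rest on few counts, such as 20 to 45 a library for SPON2, and precision is further limited to 3 libraries per group.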
